A study of Mus musculus with 20 samples.

Results

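Genes of GABAergic neurons, the cells that release the inhibitory transmitter GABA, were followed in the cortex and hippocampus of mice that overexpress *Ube3a*. The 9 genes were *Gad1*, *Gad2*, *Slc32a1*, *Lhx6*, *Dlx1*, *Dlx2*, *Dlx5*, *Dlx6* and *Sox6*. They were found by their symbols among the 47729 genes counted, each symbol gave 1 gene, and all 9 passed the filter on low counts. The study sequenced mRNA of 10 mice at P7, and each mouse gave a cortex and a hippocampus library, 20 libraries in all. WT mice 1 to 5 carried no transgene, and Ube3aOE mice 6 to 10 carried a bacterial artificial chromosome transgene with additional copies of the whole *Ube3a* coding region and its own flanking sequence, so that the transgene is not driven by a promoter of a particular cell type. All mice were of the C57Bl/6J strain and received no treatment that the labels name. The study names the sequenced mice as its Ube3a+2 model, and although the labels do not give the founder line, it describes its work after the first characterization as centred on line E.

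GABA is made from glutamate by the glutamate decarboxylases, which *Gad1* and *Gad2* encode, and is loaded into synaptic vesicles by the transporter that *Slc32a1* encodes. The homeobox genes *Dlx1*, *Dlx2*, *Dlx5* and *Dlx6* act in the ganglionic eminences of the embryo, where interneurons of the cortex and hippocampus and projection neurons of the striatum are born. *Lhx6* acts in interneurons from the medial ganglionic eminence, and *Sox6* acts after *Lhx6* in their placement and maturation, while *Sox6* is also made by other cells, oligodendrocyte precursors among them.

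Per library, between 14191093 and 16752326 reads were counted on genes, and levels are given as CPM (counts scaled to a common library total) with TMM factors, which even out the composition of libraries. *Ube3a* itself lay between 54.4 and 70.0 CPM in WT cortex and between 129.6 and 182 CPM in Ube3aOE cortex, and between 57.1 and 76.8 CPM in WT hippocampus and between 142 and 195 CPM in Ube3aOE hippocampus, so every library matched its labelled genotype. The summed level of 4 hippocampal marker genes ran from 252 to 460 CPM in hippocampus libraries and from 33.1 to 129 CPM in cortex libraries. In 7 libraries the summed markers of striatum or thalamus, or those of the other sampled tissue, were more than 2 times the median of the labelled tissue. Markers of choroid plexus and of cholinergic and septal neurons were not used for that choice, and the 13 libraries left include WT mouse 3 hippocampus, where the choroid plexus sum of 30.6 CPM was 2.13 times the median. Of the 10 mice, 2 went against their labelled sex. The differences between tissues and between genotypes are therefore also given without these 7 libraries, and those between tissues and between hippocampus genotypes also without mouse 9, whose hippocampus library held all 14 striatal markers at the highest level of any hippocampus library.

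All 9 genes lay on 3 chromosomes of the GRCm38 build in the GENCODE release M21 annotation, and all are protein coding. *Gad1* (ENSMUSG00000070880) lay on chr2:70553072-70602014, *Gad2* (ENSMUSG00000026787) on chr2:22622205-22693874, *Slc32a1* (ENSMUSG00000037771) on chr2:158610767-158615748 and *Lhx6* (ENSMUSG00000026890) on chr2:36081953-36105408. The *Dlx* genes formed pairs that point towards each other. *Dlx1* (ENSMUSG00000041911, chr2:71528113-71533981) and *Dlx2* (ENSMUSG00000023391, chr2:71543408-71546754) were 9426 bases apart, and *Dlx6* (ENSMUSG00000029754, chr6:6863334-6868568) and *Dlx5* (ENSMUSG00000029755, chr6:6877805-6882085) were 9236 bases apart. *Sox6* (ENSMUSG00000051910) spanned 567925 bases on chr7:115470872-116038796. Antisense genes shared exon bases with 3 of the 9. *Slc32a1* shared 24.9% of its exon length with *Gm14205*, which had at most 1 count in any library, *Dlx1* shared 6.21% with *Dlx1as*, which had 60 to 188 counts, and *Dlx6* shared 4.38% with *Dlx6os2*, which had at most 3 counts. The libraries were stranded, but the strand setting of the counting is not given in the sources used here, so that *Dlx1* reads in the shared exon may have been left out or assigned to either gene.

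Promoter windows from RefSeq, from 250 bases before to 50 bases after a start, were found for 7 of the 9 genes (14 windows, GRCm38.p6), namely all but *Dlx5* and *Dlx6*. They were searched on both strands for TAATTA and TAATTG, core letters bound by homeodomain proteins such as those of the *Dlx* and *Lhx* families, and for AACAAT, core letters bound by Sox proteins. The letters of the last motif can overlap with those of the second on the other strand. TAATTA was in 0 of the 14 windows and in 5.29% of all 32851 windows, TAATTG was in 1 of the 14 and in 8.00% of all, and AACAAT was in 2 of the 14 and in 10.7% of all. The match to TAATTG began at position -229 from a start of *Lhx6*, and the 30 bases around it, on the minus strand at chr2:36104272-36104301, are shown with the motif in capitals because it was the only homeodomain match among the windows:
Lhx6 promoter: cacgacaatttcTAATTGcaggtagtttgt
These are matches of letters, which do not show that a factor binds there.

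**Figure D1:**
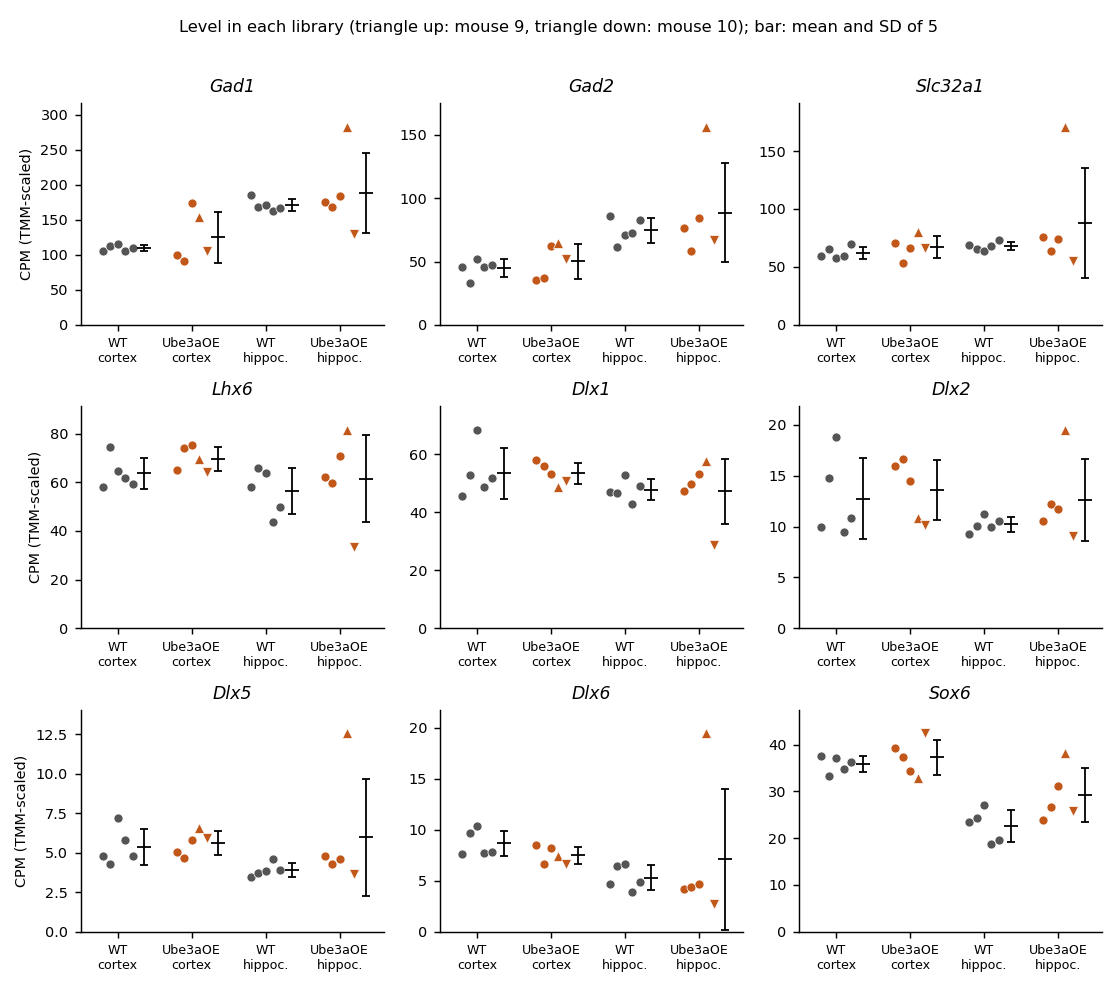
Level of each of the 9 genes in each of the 20 libraries, in TMM-scaled CPM from 0 (vertical axis), by genotype and tissue (horizontal axis), with grey points for WT and orange points for Ube3aOE. Black bars give the mean and SD of 5 libraries. Mouse 9 (triangle up) is the highest hippocampus library in all 9 panels, and mouse 10 (triangle down) is the lowest in 6.

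Whether the genes differed between the tissues was tested over all 20 libraries with edgeR's quasi-likelihood test, without a term for the mouse. The enzyme genes *Gad1* and *Gad2* were higher in hippocampus, *Sox6* was lower, and the other 6 genes did not pass an adjusted p under 0.05. Thus 2 of the 9 genes were higher, where 25.3% of the 15661 genes tested were, and 1 of the 9 was lower, where 25.6% were, and the share of members called was not above that of all genes. The 3 called genes also passed a border of 0.5 on the absolute log2 difference, as did 19.2% of all genes.

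*Gad1*, which encodes the decarboxylase found throughout the neuron, was at 105, 113, 116, 106 and 109 CPM in the cortex of WT mice 1 to 5. In the hippocampus of these mice *Gad1* was at 186, 169, 171, 163 and 166 CPM. All 5 WT hippocampus libraries thus lay above all 5 WT cortex libraries. The share of all genes whose tissues do not overlap was not counted, here and for the genes below. In Ube3aOE mice 6 to 10, *Gad1* was at 101, 90.6, 174, 154 and 106 CPM in cortex and at 176, 169, 184, 283 and 129.5 CPM in hippocampus. Here the tissues overlapped, since cortex libraries 8 and 9 were high and hippocampus library 10 was low. *Gad1* was nevertheless higher in the hippocampus of all 10 mice, by 0.08 (mouse 8) to 0.90 (mouse 7) on the log2 scale, and the fitted log2 difference was 0.62 ± 0.13 (SE, adjusted p = 0.000493). It was 0.57 without mouse 9 and 0.77 without the 7 libraries, and passed in both fits.

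*Gad2*, which encodes the decarboxylase concentrated at nerve terminals, was at 45.4, 32.7, 51.8, 46.0 and 47.1 CPM in WT cortex and at 85.6, 61.1, 71.1, 72.2 and 82.8 CPM in WT hippocampus. Ube3aOE mice had *Gad2* at 35.1, 36.9, 62.6, 64.4 and 52.2 CPM in cortex and at 76.7, 58.0, 84.0, 156 and 67.3 CPM in hippocampus. As for *Gad1*, the WT tissues did not overlap and the Ube3aOE tissues did. The hippocampus was higher in all 10 mice, and the fitted log2 difference was 0.78 ± 0.17 (SE, adjusted p = 0.000756). It was 0.69 without mouse 9 and 0.90 without the 7 libraries, and passed in both fits.

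*Slc32a1*, the vesicular transporter gene, did not follow the enzyme genes past the threshold. It was at 59.5, 65.4, 57.6, 59.0 and 69.3 CPM in WT cortex and at 68.5, 65.3, 64.1, 67.9 and 73.0 CPM in WT hippocampus. In Ube3aOE mice it was at 70.6, 53.4, 66.5, 80.1 and 66.1 CPM in cortex and at 76.1, 63.7, 74.1, 171 and 55.0 CPM in hippocampus. Its tissues overlapped in both genotypes, 8 of 10 mice had the higher level in hippocampus, and the log2 difference of 0.25 had a 95% interval from -0.07 to 0.58 (adjusted p = 0.182). Without mouse 9 the difference was 0.11 and did not pass (95% interval -0.03 to 0.25, adjusted p = 0.196), and without the 7 libraries it was 0.20 and passed (95% interval 0.05 to 0.34, adjusted p = 0.0241).

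*Sox6*, the transcription factor gene of maturing interneurons, was the only member that passed as lower. In WT mice it was at 37.6, 33.3, 37.1, 34.9 and 36.4 CPM in cortex and at 23.4, 24.2, 27.1, 18.8 and 19.5 CPM in hippocampus, with no overlap. In Ube3aOE mice it was at 39.4, 37.4, 34.4, 33.0 and 42.4 CPM in cortex and at 24.0, 26.7, 31.3, 38.3 and 25.8 CPM in hippocampus, and only hippocampus library 9 reached the cortical range. The log2 difference was -0.51 ± 0.08 (SE, adjusted p = 2.17e-05), with a lower hippocampus in 9 of 10 mice, and it was -0.58 without mouse 9 and -0.57 without the 7 libraries, both past the threshold. Of 5 markers of oligodendrocyte precursors, which also make *Sox6*, 4 were called higher in hippocampus and 0 lower (25.3% and 25.6% of all genes tested). The summed levels of these markers were 296 to 420.5 CPM in hippocampus and 260 to 351 CPM in cortex. The part of these cells in the *Sox6* level was not tested.

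The homeobox genes were lower in hippocampus in most mice, and none of them passed over all libraries. Without mouse 9 *Dlx2*, *Dlx5* and *Dlx6* passed and *Dlx1* did not. Mouse 9 held the highest hippocampus level of all 9 genes, so leaving it out takes away their most extreme value. Of the 10 fits with 1 mouse left out, the fit without mouse 9 was the only 1 that called *Dlx2*, *Dlx5* or *Dlx6*. *Dlx6* was at 7.66, 9.65, 10.4, 7.76 and 7.84 CPM in WT cortex and at 4.63, 6.46, 6.66, 3.91 and 4.85 CPM in WT hippocampus, without overlap. In Ube3aOE mice it was at 8.45, 6.59, 8.23, 7.45 and 6.65 CPM in cortex and at 4.23, 4.41, 4.67, 19.4 and 2.76 CPM in hippocampus, so that library 9 alone lay above the cortical range and the other 4 lay below it. Over all libraries the log2 difference of *Dlx6* was -0.39 (95% interval -0.95 to 0.16, adjusted p = 0.228). Without both libraries of mouse 9 it was -0.79 (95% interval -1.05 to -0.53, adjusted p = 2.93e-05), and without the 7 libraries named above it was -0.69 (adjusted p = 0.00029).

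*Dlx5*, which faces *Dlx6* on the chromosome, was at 4.79, 4.26, 7.19, 5.77 and 4.79 CPM in WT cortex and at 3.46, 3.69, 3.82, 4.60 and 3.93 CPM in WT hippocampus, where the ranges overlapped narrowly. In Ube3aOE mice it was at 5.02, 4.65, 5.79, 6.59 and 5.95 CPM in cortex and at 4.77, 4.29, 4.61, 12.5 and 3.66 CPM in hippocampus. Again 9 of 10 mice had the lower level in hippocampus and mouse 9 did not. The log2 difference was -0.19 over all libraries (95% interval -0.56 to 0.19, adjusted p = 0.410) and -0.37 without mouse 9 (95% interval -0.60 to -0.14, adjusted p = 0.00829), while it missed the threshold without the 7 libraries (-0.33, adjusted p = 0.0539).

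*Dlx2*, *Dlx1* and *Lhx6* were lower in the hippocampus of 8 of 10 mice each. *Dlx2* ranged from 9.43 to 18.8 CPM with a median of 10.8 in WT cortex, from 9.26 to 11.3 CPM with a median of 10.0 in WT hippocampus, from 10.1 to 16.7 CPM in Ube3aOE cortex and from 9.05 to 19.5 CPM in Ube3aOE hippocampus. Its log2 difference of -0.21 (adjusted p = 0.228) became -0.34 without mouse 9 (adjusted p = 0.0298) and was -0.32 without the 7 libraries (adjusted p = 0.147). *Dlx1* and *Lhx6* passed in none of these fits. *Dlx1* ranged from 45.6 to 68.4 CPM over the cortex libraries and from 28.6 to 57.6 CPM over the hippocampus libraries, with a log2 difference of -0.17 (95% interval -0.37 to 0.03, adjusted p = 0.148), which was -0.21 without mouse 9 and -0.11 without the 7 libraries. *Lhx6* ranged from 58.2 to 75.2 CPM over the cortex libraries and from 33.3 to 81.5 CPM over the hippocampus libraries, with a log2 difference of -0.18 (95% interval -0.42 to 0.06, adjusted p = 0.209), which was -0.23 without mouse 9 and -0.08 without the 7 libraries.

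With mouse 9 left out, 6 of the 9 genes were thus called, *Gad1* and *Gad2* higher and *Dlx2*, *Dlx5*, *Dlx6* and *Sox6* lower, against 7704 of the 15746 genes tested in that fit. No other fit with 1 mouse left out called *Dlx2*, *Dlx5* or *Dlx6*. Without the 7 libraries 5 were called, *Gad1*, *Gad2* and *Slc32a1* higher and *Dlx6* and *Sox6* lower, against 7746 of the 15938 genes tested in that fit. In all 3 fits the genes of GABA synthesis and loading had positive differences and the 6 transcription factor genes had negative ones. With RNA of whole tissue, fewer cells of a type and less RNA per cell cannot be told apart.

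**Figure D2:**
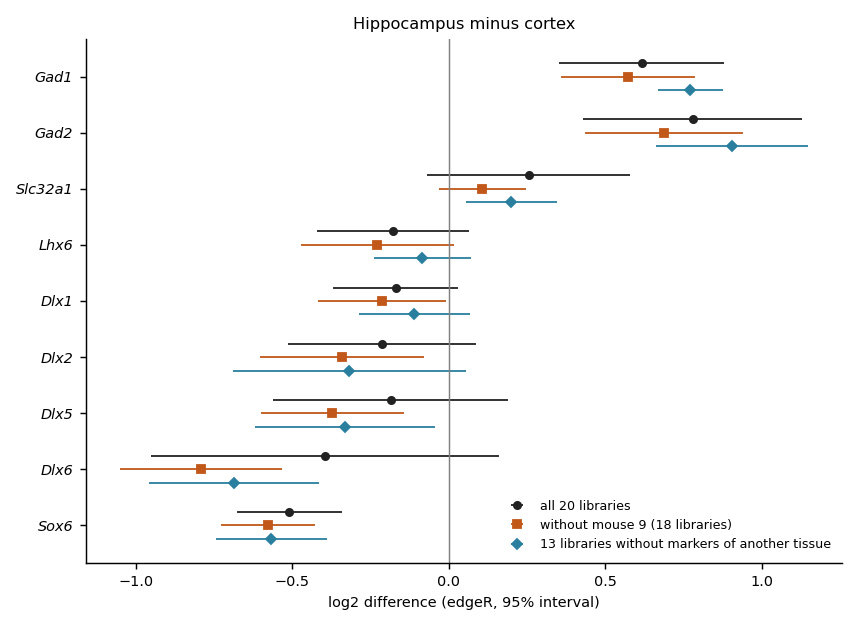
Log2 difference between hippocampus and cortex for each gene with its 95% interval (horizontal axis, positive is higher in hippocampus). Fits are over all 20 libraries (black circles), the 18 libraries without mouse 9 (orange squares) and the 13 libraries not over the marker cut of 2 times the median (blue diamonds). These 13 can still hold markers of another tissue at levels below that cut. *Gad1*, *Gad2* and *Sox6* keep intervals away from 0 in all 3 fits, and the interval of *Dlx6* leaves 0 when mouse 9 is left out (-1.05 to -0.53).

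Ratios within pairs of related genes need no scaling between libraries. The ratio of *Gad2* to *Gad1* counts was 0.406 ± 0.066 (SD, n = 5 mice) in WT cortex and 0.435 ± 0.051 in WT hippocampus, and 0.405 ± 0.057 and 0.461 ± 0.081 in Ube3aOE mice. It was higher in the hippocampus of 8 of 10 mice, by a mean of 0.14 on the log2 scale (SD 0.21), which did not pass an exact sign-flip permutation test over mice (two-sided, p = 0.0645, adjusted over the 3 pairs 0.0967). The ratio of *Dlx6* to *Dlx5* was 1.66 ± 0.36 in WT cortex, 1.38 ± 0.38 in WT hippocampus, 1.35 ± 0.24 in Ube3aOE cortex and 1.05 ± 0.30 in Ube3aOE hippocampus. It was lower in the hippocampus of 8 of 10 mice by a mean log2 difference of -0.34 (SD 0.42; exact p = 0.0352, adjusted 0.0967). The ratio of *Dlx2* to *Dlx1* differed by -0.02 (SD 0.40; exact p = 0.883) and was lower in the hippocampus of 6 of 10 mice. After adjustment no ratio passed, where the smallest p that 10 mice allow is 0.00195.

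**Figure D3:**
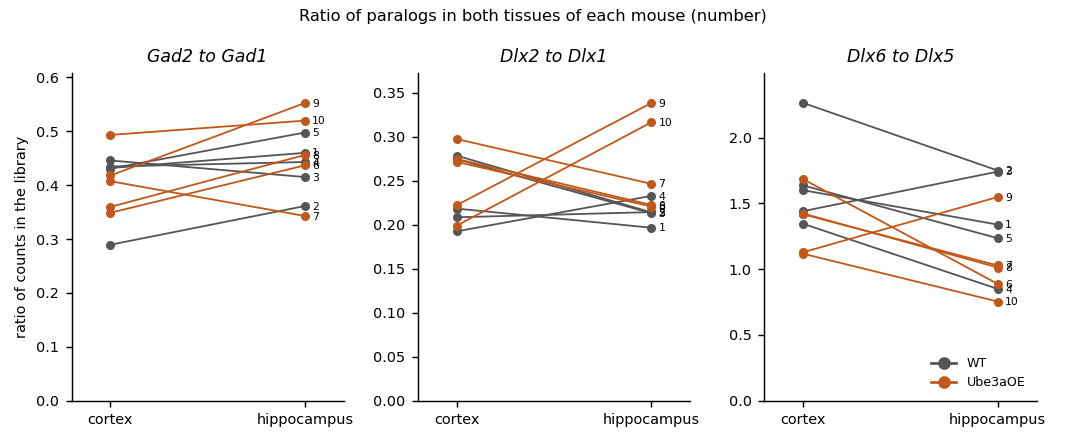
Ratio of the counts of related genes in cortex and hippocampus (vertical axis from 0), with 1 line per mouse, numbered at its hippocampus value, grey for WT and orange for Ube3aOE. *Dlx6* to *Dlx5* falls in 8 of 10 mice, while lines of *Dlx2* to *Dlx1* run in both directions (6 of 10 fall).

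Between genes, levels were compared as CPM per kilobase of merged exons. In WT cortex the order of mean levels was *Slc32a1* (22.2 CPM per kb), *Gad1* (14.4), *Lhx6* (13.3), *Dlx1* (9.92), *Gad2* (7.59), *Dlx2* (4.46), *Dlx6* (3.64), *Sox6* (2.42) and *Dlx5* (2.37). Of neighbours in this order, only *Slc32a1* and *Gad1*, and *Dlx6* and *Sox6*, had ranges over the 5 mice that did not overlap. In WT hippocampus *Slc32a1* (24.2 CPM per kb) and *Gad1* (22.4) overlapped, followed by *Gad2* (12.7), *Lhx6* (11.7), *Dlx1* (8.86), *Dlx2* (3.58), *Dlx6* (2.23), *Dlx5* (1.72) and *Sox6* (1.53). There *Gad2* stood above both *Lhx6* and *Dlx1* in the order, while it stood below them in cortex, although its range overlapped with that of *Lhx6* in hippocampus and with that of *Dlx1* in cortex. *Sox6*, the longest of the 9 by merged exons with 14832 bases, stood last in WT hippocampus. That length joins the exons of 16 annotated transcripts, so the level per kb can be too low where a shorter transcript is made. In CPM its mean in WT hippocampus, 22.6, was above those of *Dlx2* (10.2), *Dlx6* (5.30) and *Dlx5* (3.90). In Ube3aOE hippocampus the same gene led the order per kb and the same came last (*Slc32a1* 31.5 and *Sox6* 1.97 CPM per kb), and the ranges of all neighbours overlapped.

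Whether the genes differed between genotypes was tested in each tissue over 5 WT and 5 Ube3aOE libraries. In hippocampus 0 of the 9 genes were called by edgeR's quasi-likelihood test, where 0.00657% of 15220 genes were (only *Ube3a*), 1 of the 9 (*Sox6*) and 7.21% of all genes had an unadjusted p under 0.05, and DESeq2 also called 0. In cortex 0 of the 9 were called, where 0.00669% of 14947 genes were (again only *Ube3a*), 0 of the 9 and 4.44% of all genes had an unadjusted p under 0.05, and DESeq2 called 0 of the 9. For each of the 9 genes the WT and Ube3aOE libraries of a tissue overlapped. The share of all genes that overlap, between genotypes or between tissues, was not counted.

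In hippocampus the log2 differences between Ube3aOE and WT, with 95% intervals, were 0.14 (-0.24 to 0.51) for *Gad1*, 0.24 (-0.32 to 0.81) for *Gad2* and 0.37 (-0.27 to 1.01) for *Slc32a1*. These intervals leave room for a change of the enzyme genes in either direction. *Sox6* was the member with an unadjusted p under 0.05. Its 5 Ube3aOE hippocampus libraries ranged from 24.0 to 38.3 CPM and its 5 WT libraries from 18.8 to 27.1 CPM, with a log2 difference of 0.37 (0.07 to 0.66, adjusted p = 0.668). For the homeobox genes the differences were -0.02 (-0.36 to 0.32) for *Dlx1*, 0.30 (-0.07 to 0.67) for *Dlx2*, 0.61 (-0.07 to 1.29) for *Dlx5* and 0.41 (-0.73 to 1.55) for *Dlx6*. *Lhx6* had a difference of 0.13 (-0.35 to 0.60).

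Mouse 9 set several of these values. Without it, the hippocampal difference of *Dlx6* turned to -0.40 (-0.84 to 0.05), that of *Slc32a1* to -0.0088 (-0.21 to 0.19), that of *Gad1* to -0.05 (-0.25 to 0.15) and that of *Gad2* to -0.06 (-0.32 to 0.20). The differences of *Dlx5* (0.15), *Dlx2* (0.09), *Lhx6* (0.0085) and *Sox6* (0.25) were smaller than with mouse 9 but positive, and that of *Dlx1* was -0.09. Without the 7 libraries, which leave 3 WT and 2 Ube3aOE hippocampus libraries, the differences were 0.04 for *Gad1*, 0.0064 for *Gad2*, 0.13 for *Slc32a1*, 0.21 for *Lhx6*, 0.01 for *Dlx1*, 0.10 for *Dlx2*, 0.32 for *Dlx5*, -0.27 for *Dlx6* and 0.24 for *Sox6*. None of the 9 passed in either of these fits.

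In cortex the intervals were narrower for most genes. The log2 difference was 0.19 (-0.18 to 0.56) for *Gad1*, 0.18 (-0.24 to 0.59) for *Gad2*, 0.12 (-0.08 to 0.32) for *Slc32a1* and 0.06 (-0.10 to 0.22) for *Sox6*. *Lhx6* differed by 0.13 (-0.03 to 0.29), *Dlx1* by -0.00058 (-0.21 to 0.21), *Dlx2* by 0.10 (-0.35 to 0.55), *Dlx5* by 0.06 (-0.28 to 0.41) and *Dlx6* by -0.21 (-0.47 to 0.06). The cortical differences of *Gad1* and *Gad2* rested on mice 8 and 9, and without these 2 libraries they turned to -0.15 and -0.11, which did not pass either (adjusted p = 1.00 for both). Without these libraries *Slc32a1* was at 0.03, *Lhx6* at 0.09, *Dlx1* at 0.04, *Dlx2* at 0.16, *Dlx5* at -0.05, *Dlx6* at -0.26 and *Sox6* at 0.15, and none passed.

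**Figure D4:**
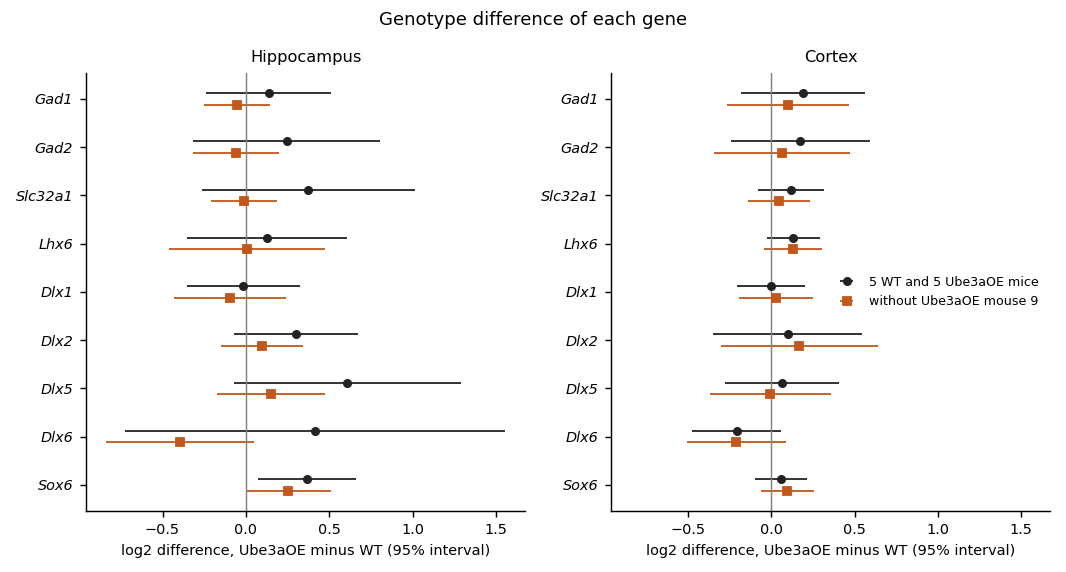
Log2 difference between Ube3aOE and WT libraries with its 95% interval (horizontal axis, positive is higher in Ube3aOE) for each gene in hippocampus (left) and cortex (right), over 5 WT and 5 Ube3aOE mice (black circles) and without Ube3aOE mouse 9 (orange squares). Most intervals span 0, and in hippocampus *Dlx6* moves from 0.41 to -0.40 when mouse 9 is left out.

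Whether the tissues differed from each other in their genotype difference was tested as an interaction over 20 libraries. None of the 9 genes was called, where 0% of 15661 genes were, with 590 of all genes but none of the 9 at an unadjusted p under 0.05, and DESeq2 called 0. *Sox6* had an interaction of 0.31 on the log2 scale (95% interval -0.02 to 0.65), *Dlx6* of 0.62 (-0.49 to 1.74) and *Dlx5* of 0.55 (-0.21 to 1.30). Read within a genotype, *Dlx6* was lower in hippocampus by a log2 difference of -0.71 in WT (adjusted p = 0.152) and of -0.08 in Ube3aOE mice (adjusted p = 0.894), and the interaction is the test of that contrast.

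The library of Ube3aOE mouse 9 hippocampus held the highest level of all 9 genes among the 10 hippocampus libraries. Against the median of the other 9 libraries it was 4.20 times as high for *Dlx6*, 3.19 times for *Dlx5*, 2.52 times for *Slc32a1* and 2.17 times for *Gad2*. *Dlx1* and *Lhx6* were raised least, to 1.22 and 1.36 times the median. The same library held 14 of 14 markers of striatal projection neurons, which are themselves GABAergic, above every other hippocampus library, and their summed level was 1036 CPM, against 169.5 to 238 CPM in the other 9. Among them were *Ppp1r1b*, which encodes a regulator of dopamine signalling, at 218 CPM, 18.1 times the median of the others, and the adenosine receptor gene *Adora2a* at 64.3 CPM, 13.4 times. None of these 14 markers was at 0 in that library, and the markers of glutamatergic neurons included 0 of 10 above and 3 of 10 below every other library. Markers of choroid plexus, the tissue that makes cerebrospinal fluid, were also high in this library, with a sum of 344 CPM, 23.9 times the median of hippocampus libraries, of which *Ttr* made up 324 CPM. Their sum was higher still in Ube3aOE mouse 7 hippocampus (1943 CPM, 135 times the median), where the mean log2 deviation of the 9 genes from the tissue median was -0.02. The part of striatal or choroid plexus RNA in the level of the 9 genes was not tested.

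The hippocampus library of Ube3aOE mouse 10 stood at the other end. It was the lowest of 10 for 6 of the 9 genes, with *Lhx6* at 0.537, *Dlx1* at 0.580 and *Dlx6* at 0.590 times the median of the others, while *Sox6* was at 1.07 times. The summed markers of thalamus were 740 CPM in this library, 9.80 times the median of hippocampus libraries. Most of the sum was *Tcf7l2*, a transcription factor gene of thalamic neurons, at 564 CPM against a median of 4.77 CPM. Of the 5 thalamic markers 4 lay above every other hippocampus library, while *Prkcd* was at 0.990 times the median. The summed markers of cholinergic and septal neurons were also highest here, at 230 CPM (8.64 times the median), of which *Zic1* made up 218 CPM. Thalamic markers were also high in WT mouse 4 (325 CPM in sum) and Ube3aOE mouse 7 (405 CPM). In these libraries the cholinergic and septal sums were 4.09 (mouse 4) and 3.63 (mouse 7) times the median. The mean log2 deviation of the 9 genes from the tissue median was -0.39 in mouse 10, -0.15 in mouse 4 and -0.02 in mouse 7. The part of thalamic or septal RNA in the levels of the 9 genes was not tested.

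In cortex, libraries 8 and 9 of Ube3aOE mice held the highest levels of *Gad1* (174 and 154 CPM) and *Gad2* (62.6 and 64.4 CPM). They were also the cortex libraries with the highest summed hippocampal markers (129 and 120 CPM, against 33.1 to 60.3 CPM in the other 8), for example *Fibcd1* at 54.7 and 44.1 CPM against a median of 6.40 CPM. Cortex library 9 also held 7 of the 14 striatal markers above every other cortex library, and cortex library 8 held 0. Against the median of the other 8 cortex libraries, *Gad1* was at 1.65 and 1.46 times and *Sox6* at 0.922 and 0.884 times. Of the 9 genes, 8 lay above that median and 1 below in library 8, and 5 above and 4 below in library 9. *Dlx5* (1.18 and 1.34 times) and *Lhx6* (1.17 and 1.08 times), which had negative tissue differences, were above it in both. The part of hippocampal or striatal RNA in these values was not tested.

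**Figure D5:**
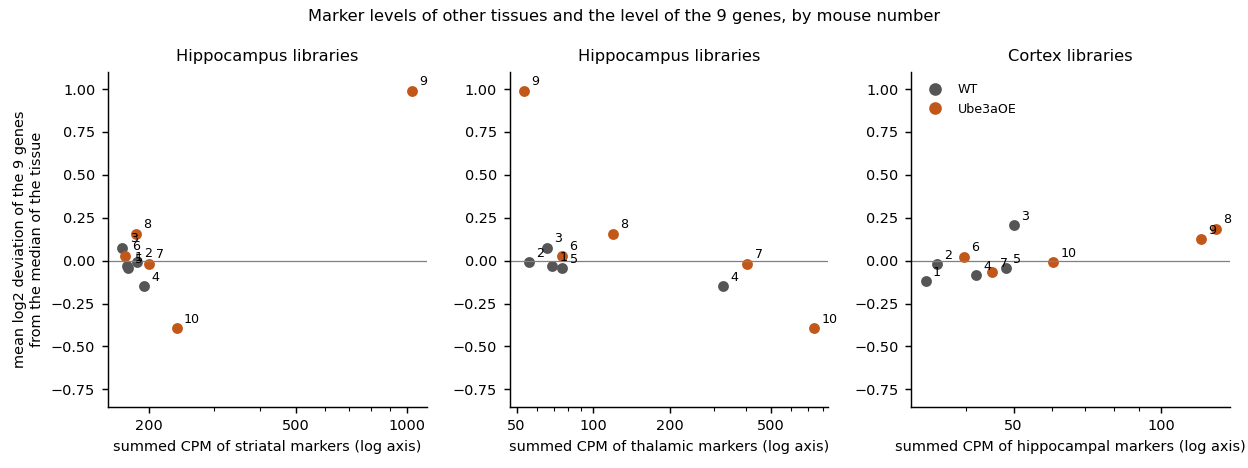
Mean log2 deviation of the 9 genes from the median of their tissue (vertical axis) against the summed CPM of striatal markers (left, hippocampus libraries), thalamic markers (middle, hippocampus libraries) and hippocampal markers (right, cortex libraries) on log axes, with 1 point per library and the mouse number beside it. In hippocampus, mouse 9 stands alone at 1036 CPM of striatal markers and mouse 10 at 740 CPM of thalamic markers, at the upper and lower end of the 9 genes.

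Other genes of GABA metabolism were counted from a list of 13 (uptake, breakdown and supply of glutamine). Between tissues 4 of 13 were higher in hippocampus, 1 was lower and 8 were not called, where 25.3% of all genes tested were higher and 25.6% lower. The median log2 difference was 0.01 (all genes -0.01). Among the 4 higher were *Slc38a3*, a glutamine transporter gene of astrocytes (0.36, adjusted p = 0.000196), *Abat*, which encodes the enzyme that breaks down GABA (0.27, adjusted p = 0.0176), and *Aldh5a1*, the next enzyme of that route (0.16, adjusted p = 0.00492). *Slc38a2*, a neutral amino acid transporter gene, was lower (-0.36, adjusted p = 7.66e-06). Between genotypes edgeR called 0 of them in either tissue, with 2 at an unadjusted p under 0.05 in hippocampus and 0 in cortex.

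Of 20 further genes of interneuron development, 18 were tested between tissues, and 4 were higher, 8 lower and 6 not called, with a median log2 difference of 0.05. Of all genes tested, 25.3% were higher and 25.6% lower. *Prox1*, which marks interneurons of the caudal ganglionic eminence but also granule cells of the dentate gyrus, had the largest difference at 3.21 (adjusted p = 1.26e-09). *Satb1*, which acts in the maturation of *Lhx6* interneurons and is also made by cortical projection neurons, was lower (-1.21, adjusted p = 1.62e-08). *Sp9*, a transcription factor gene of the ganglionic eminences, was higher (0.95, adjusted p = 0.000171), and so was *Nkx2-1* (1.25, adjusted p = 0.0366), which acts before *Lhx6* and stood at 5.08 CPM in mouse 9 hippocampus against a median of 0.596 CPM in the other hippocampus libraries. Of the *Dlx* relatives and antisense RNAs 2 of 5 were tested, and *Dlx1as*, which overlaps *Dlx1*, was lower (-0.56, adjusted p = 0.00155), as *Dlx1* itself was by a smaller difference that did not pass. Between genotypes edgeR called 0 genes of both lists in either tissue (0.00657% of all genes in hippocampus and 0.00669% in cortex). An unadjusted p under 0.05 was reached by 1 interneuron gene in hippocampus and 2 in cortex, and by 0 of the *Dlx* relatives. Of all genes, 7.21% in hippocampus and 4.44% in cortex reached it.

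For comparison, of 10 genes of glutamatergic neurons 5 were higher in hippocampus and 3 lower, and of 4 genes of all neurons 3 were lower and 0 higher. Of all genes tested, 25.3% were higher and 25.6% lower. The median log2 difference was 0.19 for the 10 glutamatergic genes and -0.44 for the 4 genes of all neurons. For the 9 GABAergic genes, which were called in both directions, it was -0.18. The summed level of the 4 neuron genes was 3920 to 4969 CPM in hippocampus and 5009 to 5722 CPM in cortex.

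The genes whose levels varied most like the mean of the 9 across libraries were found by correlation of log2 CPM, after the mean of each genotype was taken out, over the 10 libraries of a tissue and among 15652 genes. In hippocampus they were *Vrk1* (Pearson r of 0.974), *Gng7*, *Ankrd63*, *Tac1*, *Plxnd1*, *E430024P14Rik*, *Adamts2* and *Rxrg* (0.930), where *Tac1* is one of the 14 striatal markers. All of these correlations share the library of mouse 9. Without that mouse the 8 highest were other genes, led by *Eefsec* (0.992 over 9 libraries), *Siah3* (0.990) and *Usp1* (0.977). In cortex they were *Srpk3* (0.954), *Rfesd*, *Cdhr1*, *Kl*, *Ccl9*, *Tshz1*, *Pbx3* and *Ucp2* (0.924). The 9 genes themselves followed their own mean in hippocampus with r from 0.757 (*Sox6*) to 0.977 (*Gad1*), and in cortex with r from -0.34 (*Sox6*) to 0.783 (*Dlx6*). Without mouse 9 the hippocampal values ran from 0.266 (*Gad2*) to 0.969 (*Dlx1*). The mean includes the gene itself, which raises r. With this few libraries and this many genes such values are descriptions.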

How the data were processed

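RNA of cortex and hippocampus of 5 WT and 5 Ube3aOE mice was made into TruSeq stranded mRNA libraries. The authors deposited raw read counts per gene for each library, without normalization, and 5 further lines of reads not counted on a gene, which were left out. The submitters' processing notes name HISAT2 2.1.0, HTSeq 0.11.2 and GRCm38 (mm10), while the annotation and strand setting are not given in the sources used here. Reads aligned to more than 1 place, 10.3% to 13.7% of a library, were not counted, so levels of genes with close copies can be too low. Of the identifiers, 99.1% were in GENCODE release M21.

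Tests on counts used edgeR 4.0.16 in R 4.3.3 (filterByExpr, TMM, robust quasi-likelihood F test, Benjamini-Hochberg adjustment over all genes tested, threshold 0.05). Genotypes were compared within a tissue without covariates, tissues and the interaction over all 20 libraries. Adjusted p-values in the text are from this test. Intervals are at 95% and rest on the spread between libraries within groups, where each library of a genotype fit is a different mouse. Tissue and interaction fits held no term for the mouse and took both its libraries as independent, except with the mouse as a replicate block. Ratios were compared by exact sign-flip tests. Log2 CPM used a prior count of 2. The fits were tested on simulated data. Figures were drawn in Python 3.11.15 with matplotlib 3.10.9.

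Group, mouse number and sex came from the labels, and equal numbers were taken to mark libraries of the same animal. Correlations were taken of deviations of log2 CPM from the group means: for the tissues of a mouse they were -0.04 to 0.248 (median 0.215) and over 0.1 in 9 of 10 mice. Libraries of different mice were not correlated, so these values cannot show that equal numbers are the same animal. The members, lists and tests were chosen with earlier results of these data known. The 9 members were all named, of each list up to 4 called genes with the largest tissue difference, and the 8 genes most alike in each tissue, while 1 gene that this rule names is not reported here. *Ppp1r1b*, *Adora2a*, *Ttr*, *Tcf7l2*, *Prkcd*, *Zic1* and *Fibcd1* were named after their values were seen. Alternatives were DESeq2 1.42.0, median-ratio size factors, no filter on low counts, labelled sex as a covariate, the mouse as a replicate block and each mouse left out, and for levels CPM without TMM factors, and for ratios 0.5 added to counts. Leaving out the 7 libraries with markers of another tissue, and the likeness without mouse 9, were added after seeing the data. Among the mice left out, mouse 9 was singled out for its marker levels in these data.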

Additional observations from a re-analysis of the deposited data

Results flagged for a closer look

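In the hippocampus of Ube3aOE mice, 1 library lay far from the other 4 for 4 genes, by Dixon's test on the gap to its nearest neighbour as a share of the range of the group. In each case it was the highest value and came from mouse 9. *Gad2* was at 156 CPM there, with the next library at 84.0 CPM. *Slc32a1* was at 171 CPM, with the next at 76.1 CPM. *Dlx5* was at 12.5 CPM, with the next at 4.77 CPM. *Dlx6* was at 19.4 CPM, with the next at 4.67 CPM. In all, 36 groups were searched (9 genes in 4 groups of 5 libraries), and about 1 in 20, or 1.8, would stand out by chance. The 4 cases come from 1 library and are not independent of each other.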

How the results depend on the processing

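Between tissues, the calls of *Gad1*, *Gad2* and *Sox6* and the direction of all 9 genes were the same under DESeq2, median-ratio size factors, no filter on low counts, labelled sex as a covariate and with any mouse left out. With the mouse as a replicate block the same 3 of the 9 were called (*Gad1* 0.62, *Gad2* 0.76, *Sox6* -0.52), and the block changed no other call. *Dlx6* was then at -0.56 (95% interval -1.05 to -0.07, adjusted p = 0.0521) and did not pass. The number of the 9 called ran from 3 to 6 with a mouse left out (6 without mouse 9) and was 5 without the 7 libraries that hold markers of another tissue, where 7746 of all 15938 genes were called. Group means of CPM moved by less than 1 SD without TMM factors or with median-ratio size factors.

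Between genotypes no alternative called any of the 9 genes. Of all genes, 2 were called in hippocampus with sex as a covariate and 4 in cortex by DESeq2. Differences that were not called changed sign with a mouse left out. In hippocampus the ranges were -0.054 to 0.25 for *Gad1*, -0.059 to 0.37 for *Gad2*, -0.0088 to 0.50 for *Slc32a1*, -0.093 to 0.12 for *Dlx1* and -0.40 to 0.62 for *Dlx6*, and in cortex -0.053 to 0.10 for *Dlx1* and -0.0094 to 0.19 for *Dlx5*. The interaction ranged from -0.17 to 0.11 for *Gad1*, -0.13 to 0.18 for *Gad2*, -0.065 to 0.38 for *Slc32a1*, -0.13 to 0.13 for *Lhx6*, -0.13 to 0.11 for *Dlx1*, -0.085 to 0.32 for *Dlx2* and -0.20 to 0.81 for *Dlx6*. Without the 7 libraries the sign changed in hippocampus for *Dlx1* (0.014) and *Dlx6* (-0.27), in cortex for *Gad1* (-0.15), *Gad2* (-0.11), *Dlx1* (0.036) and *Dlx5* (-0.046), and in the interaction for *Gad1* (0.20), *Lhx6* (0.13), *Dlx2* (-0.051) and *Dlx6* (-0.0073). Without a filter *Dlx1* in cortex was at 0.00030. The cause of these changes was not tested.

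With a mouse left out, the log2 difference between tissues ran from 0.12 to 0.19 for the ratio of *Gad2* to *Gad1*, which had an unadjusted exact p under 0.05 without mouse 3 or mouse 7, from -0.094 to 0.022 for *Dlx2* to *Dlx1*, and from -0.43 to -0.28 for *Dlx6* to *Dlx5*, which lost its unadjusted p under 0.05 without any of mice 2, 4, 5, 6, 7, 8 and 10. Without the 6 mice that gave the 7 libraries, *Dlx6* to *Dlx5* was at -0.33 over 4 mice, too few for any p under 0.05. Low counts limit *Dlx5* (57 to 195 counts a library) and *Dlx6* (46 to 302) most.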
